A study of Homo sapiens with 9 samples.

Results

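Histone deacetylases remove acetyl groups from lysines, histone acetyltransferases add them, and 10 genes of these 2 opposing families were followed across the study: HDAC1, HDAC2, HDAC3, HDAC4, HDAC5, HDAC6, HDAC9, SIRT1, EP300 and CREBBP. They were chosen by symbol, as every probe set that the platform annotation pairs with 1 of these symbols alone. All 10 genes were found, on 14 of the 22215 probe sets tested, and each of the 14 was tested with no filter on dim signal. HDAC6 had 3 probe sets, EP300 and CREBBP had 2 each, and the other 7 genes had 1.

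The labels give all samples as IMR-32 cells, a human neuroblastoma line known to carry an amplified MYCN gene. One group stably expressed the 69-kDa form of choline acetyltransferase (69CHAT), another stably expressed the 82-kDa form (82CHAT), and the third was labelled wild type (WT). Choline acetyltransferase makes acetylcholine from choline and acetyl-CoA, the same acetyl donor that histone acetyltransferases use, and the study asked how each form changes gene expression. Each group had 3 arrays, described in the series' design text as biological replicates (n = 3 for every group mean below). The effect of a form cannot be told apart from that of the line that carries it, and the labels name no vector, promoter or vehicle.

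Acetylation of histone tails loosens chromatin and recruits bromodomain proteins, and deacetylation reverses this. Of the genes followed, HDAC1, HDAC2 and HDAC3 are class I deacetylases, nuclear enzymes that work inside corepressor complexes. HDAC4, HDAC5 and HDAC9 are class IIa, shuttle between nucleus and cytoplasm and bind MEF2 factors, while HDAC6 is mainly a cytoplasmic deacetylase of tubulin. SIRT1 is an NAD-dependent deacetylase, and EP300 and CREBBP encode the paralogous acetyltransferases p300 and CBP. In neurons, HDAC1 and HDAC2 are known to overlap in function, and HDAC5 leaves the nucleus on neuronal activity.

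The arrays labelled WT went against their label. MYCN, by its brightest probe set, read 4181, 5567 and 5947 on the 69CHAT arrays and 4301, 6025 and 6118 on the 82CHAT arrays, against 62.5, 120 and 100 on the WT arrays. The summed signal of 12 measured sympathoadrenal markers was 10882 to 17853 in 69CHAT and 13640 to 20338 in 82CHAT, against 1812 to 2041 in WT, with 8 of the 12 called higher in each line and 0 lower. Of these markers TH read under the array's lower quartile on every array of all 3 groups, and HAND2 did so on every WT array. The sum of 8 epithelial markers was 364 to 402 in 69CHAT and 367 to 412 in 82CHAT, against 6271 to 7135 in WT, with 7 of the 8 called lower in each line. EPCAM, KRT19, CDH1, DSP and DSG2 were under the lower quartile on all arrays of both lines. The sum of 8 mesenchymal markers was 4997 to 8079 in 69CHAT and 4918 to 7142 in 82CHAT, against 12342 to 13570 in WT, with 2 called lower in 69CHAT and 3 in 82CHAT. That of 4 measured Schwann and glial markers overlapped, at 268 to 357 in 69CHAT and 269 to 408 in 82CHAT, against 270 to 309 in WT, with 1 (ERBB3) called lower in each line. CHAT itself read 256, 175 and 177 in 69CHAT and 1066, 423 and 1067 in 82CHAT, against 148, 125 and 114 in WT. It was called higher than WT in 82CHAT (limma adjusted p = 0.00057) but not in 69CHAT (0.23), nor between the lines (0.7). Whether the CHAT probes lie in the transgenes is not known here. Every difference from WT below is therefore a difference from the arrays so labelled, and the part that the cell type of those arrays has in it was not tested. The difference between the means of 82CHAT and 69CHAT uses no WT array, although these arrays enter the estimate of the spread behind its test.

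Sequences upstream of the start of 4 of the genes are shown. HDAC1 and HDAC3 were both lower in the lines, and HDAC2 is the closest relative of HDAC1 and was not. SIRT1, which was not called in either line, was picked because its window holds an E-box. Each sequence is the 250 bases before the annotated start, read 5′ to 3′ on the gene's strand, from RefSeq (GRCh38.p14). Windows were given there for 9 of the 10 genes. HDAC5, the member called higher, had none and could not be shown. Capitals mark the GC box (GGGCGG, or CCGCCC on the other strand), the CCAAT box (CCAAT or ATTGG) and the E-box (CACGTG, the same on both strands). Overlapping matches were each counted. The windows are chr1:32291833-32292082 on the plus strand for HDAC1, chr6:113971149-113971398 on the minus strand for HDAC2, chr5:141636850-141637099 on the minus strand for HDAC3 and chr10:67884406-67884655 on the plus strand for SIRT1.
HDAC1: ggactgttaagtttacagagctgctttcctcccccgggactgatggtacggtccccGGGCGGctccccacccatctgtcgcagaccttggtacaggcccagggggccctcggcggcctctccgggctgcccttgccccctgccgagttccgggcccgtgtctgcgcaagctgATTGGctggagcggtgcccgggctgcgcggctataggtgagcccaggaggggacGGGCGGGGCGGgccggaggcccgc
HDAC2: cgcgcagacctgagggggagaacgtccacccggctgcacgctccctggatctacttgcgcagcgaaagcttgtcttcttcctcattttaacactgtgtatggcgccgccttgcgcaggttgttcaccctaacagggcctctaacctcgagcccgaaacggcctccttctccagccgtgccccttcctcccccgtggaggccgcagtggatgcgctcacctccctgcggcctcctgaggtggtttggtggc
HDAC3: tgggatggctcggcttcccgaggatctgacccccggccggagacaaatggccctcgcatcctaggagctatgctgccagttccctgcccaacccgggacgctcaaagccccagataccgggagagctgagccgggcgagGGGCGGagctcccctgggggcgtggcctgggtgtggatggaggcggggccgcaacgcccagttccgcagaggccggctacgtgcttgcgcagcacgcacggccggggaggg
SIRT1: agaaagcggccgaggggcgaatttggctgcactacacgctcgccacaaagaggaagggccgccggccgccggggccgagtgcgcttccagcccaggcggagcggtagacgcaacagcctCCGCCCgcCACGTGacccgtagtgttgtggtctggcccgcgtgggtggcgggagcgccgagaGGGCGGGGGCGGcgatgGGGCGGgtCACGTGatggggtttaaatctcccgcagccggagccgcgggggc
The HDAC1 window held 3 GC boxes and 1 CCAAT box, the HDAC3 window held 1 GC box, and the HDAC2 window held none of the 3 motifs. The SIRT1 window held 4 GC boxes and 2 E-boxes. Since it was picked for that motif, the share of windows with an E-box below is no test of it. An HDAC4 window not shown here also held 1 E-box. Among 35116 RefSeq windows of the same length 42.6% held a GC box, 32.0% a CCAAT box and 6.34% an E-box. These are matches of letters in a window and no measure of binding.

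In both ChAT lines HDAC1 and HDAC3 were lower and HDAC5 was higher than on the arrays labelled WT, and the other 7 genes were not called. That made 1 probe set of the 14 higher and 2 lower in 69CHAT, and the same numbers in 82CHAT. A probe set counts as called where its adjusted p in limma, over all 22215 probe sets of the comparison, was under 0.05. Of all probe sets 26.2% were called in the comparison of 69CHAT with WT (10.9% higher and 15.3% lower) and 26.8% in that of 82CHAT with WT (11% higher and 15.7% lower). The members' 3 of 14 (21.4%) was thus below the share of the whole array in both, and the counts say nothing particular about these genes as a group. The 3 arrays of 69CHAT did not overlap those of WT at 2 probe sets that were higher (HDAC5 and 1 of HDAC6) and 2 that were lower (HDAC1 and HDAC3), against 22.5% higher and 21.2% lower among all probe sets (43.7% in all). For 82CHAT this held at 1 that was higher (HDAC5) and 2 that were lower (HDAC1 and HDAC3), against 20.9% higher and 21.3% lower (42.3% in all). The 2 comparisons share the 3 WT arrays. Median log2 differences of the 14 probe sets were 0.05 in 69CHAT and -0.05 in 82CHAT, against 0.06 over all probe sets in each.

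**Figure D1:**
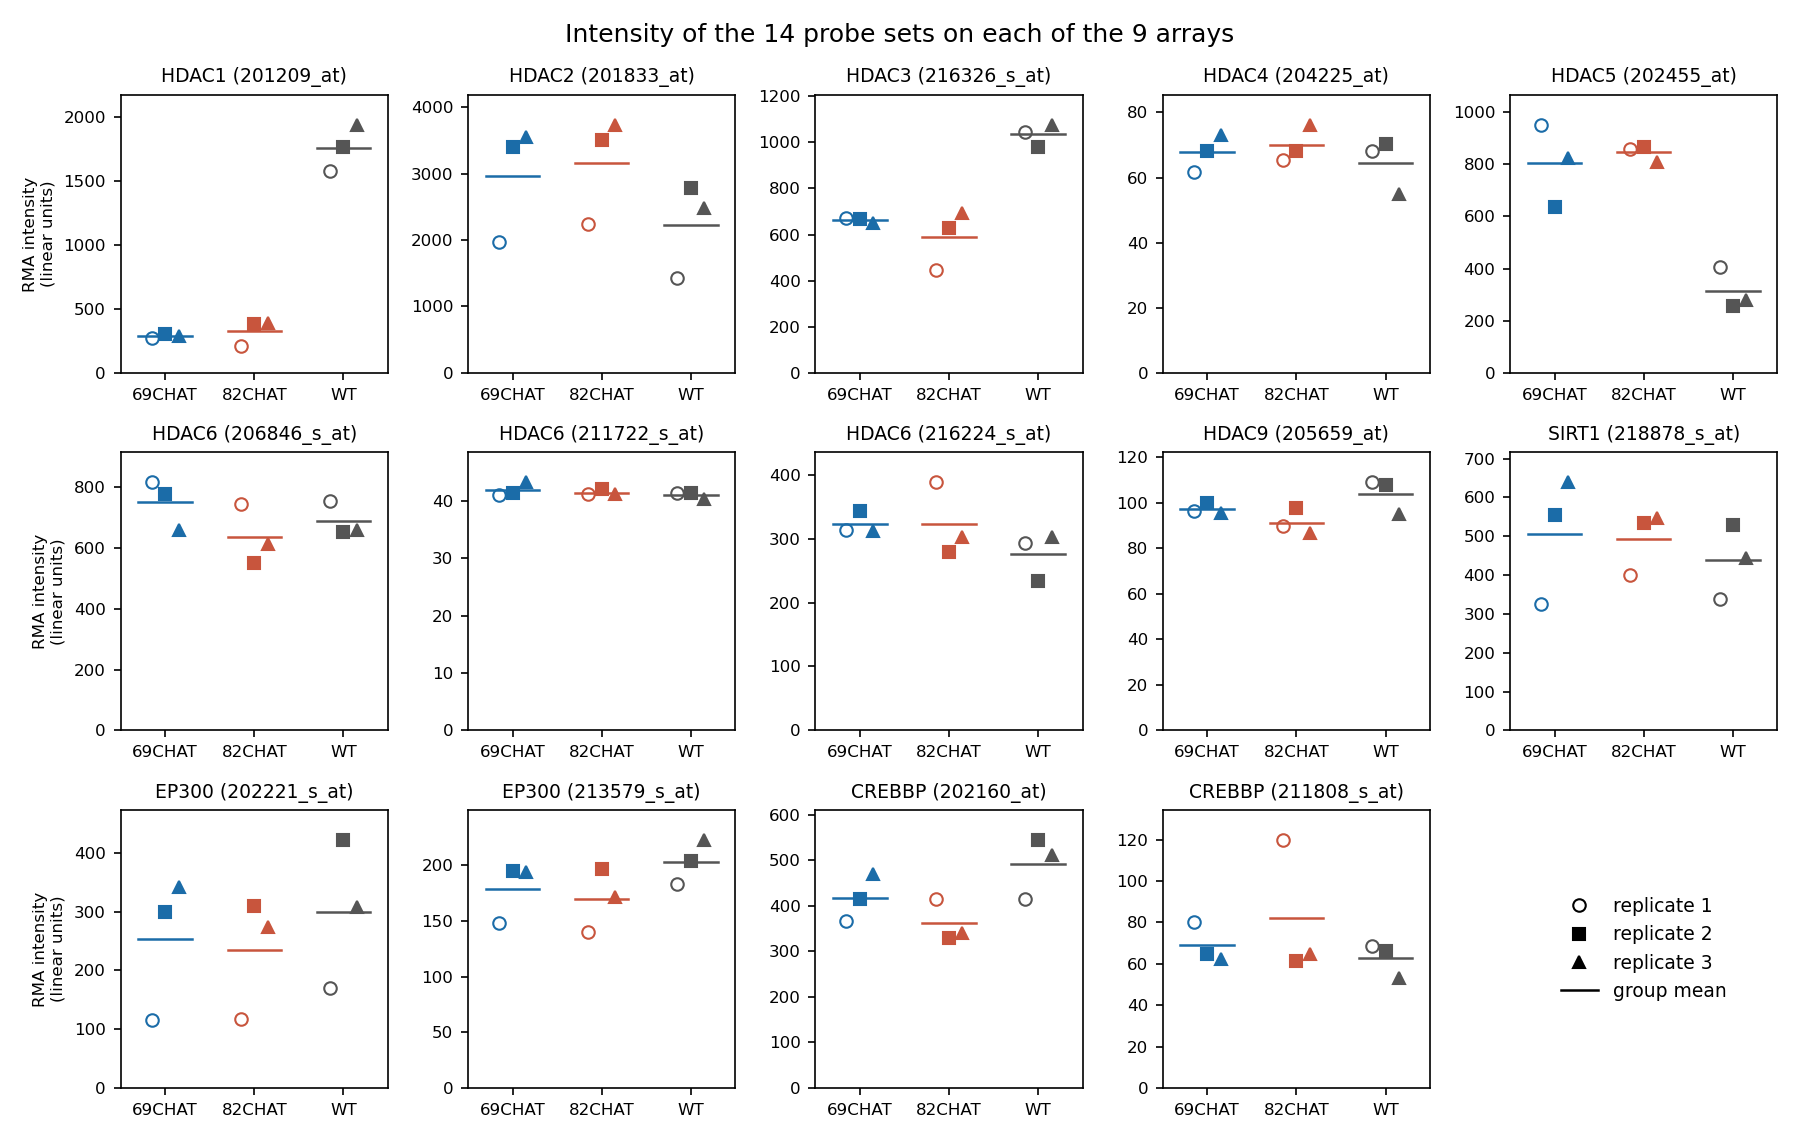
RMA intensity (vertical axis, linear units, from 0) of the 14 probe sets on each array of 69CHAT, 82CHAT and WT (horizontal axis), with a marker for each replicate number and a line at the group mean. HDAC1 lies at 212 to 390 in both lines and at 1579 to 1940 on the WT arrays, HDAC5 lies at 637 to 951 in the lines and at 257 to 407 in WT, and replicate 1 is the lowest array of every group for HDAC2, SIRT1 and EP300.

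HDAC1, the catalytic subunit of the Sin3, NuRD and CoREST corepressors, had the largest difference of the 14. Its probe set read 272, 304 and 290 in 69CHAT and 212, 381 and 390 in 82CHAT, against 1579, 1768 and 1940 in WT. Every array of the lines was lower than every WT array by a wide margin. HDAC1 was 6.09-fold lower in 69CHAT (log2 difference -2.61, SE 0.22, limma adjusted p = 4.1e-05) and 5.56-fold lower in 82CHAT (-2.47, SE 0.22, adjusted p = 5.6e-05). By the p of the test it ranked 603 and 680 among the 22215 probe sets. Within same-numbered arrays the log2 difference was -2.54, -2.54 and -2.74 in 69CHAT and -2.90, -2.21 and -2.31 in 82CHAT. The fall was thus present in each replicate number. In bulk RNA, fewer cells with a transcript and less of it per cell cannot be told apart, here and in all comparisons below.

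HDAC3, the catalytic subunit of the NCoR and SMRT corepressors, was lower by a smaller amount. Its probe set read 673, 668 and 651 in 69CHAT and 445, 627 and 693 in 82CHAT, against 1045, 980 and 1076 in WT. All 6 arrays of the lines were below all 3 WT arrays. It was 1.56-fold lower in 69CHAT (log2 difference -0.64, SE 0.15, limma adjusted p = 0.012) and 1.79-fold lower in 82CHAT (-0.84, SE 0.15, adjusted p = 0.0031). Replicate 1 of 82CHAT was the lowest array of all, and in replicates 2 and 3 alone HDAC3 was 1.56-fold lower in each line (adjusted p = 0.00098 in 69CHAT and 0.001 in 82CHAT).

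HDAC2, the paralogue that sits in the same complexes as HDAC1, was not lower in the lines. Its probe set read 1965, 3394 and 3549 in 69CHAT and 2245, 3510 and 3736 in 82CHAT, against 1432, 2789 and 2478 in WT. Replicate 1 was the lowest array of each group, and the groups overlapped. The log2 difference from WT was 0.42 in 69CHAT (95% interval -0.32 to 1.16, limma adjusted p = 0.40) and 0.52 in 82CHAT (-0.21 to 1.26, adjusted p = 0.28). Within same-numbered arrays HDAC2 was higher in the line in all 6 pairs, by 0.46, 0.28 and 0.52 in 69CHAT and by 0.65, 0.33 and 0.59 in 82CHAT. With the replicate number as a block in the fit it was called higher in both lines (adjusted p = 0.0059 in 69CHAT and 0.0022 in 82CHAT), as it was in replicates 2 and 3 alone (0.008 in 69CHAT and 0.0044 in 82CHAT) and with array weights (0.037 and 0.031). The level of HDAC2 cannot be set against that of HDAC1, since probe sets differ in their response to RNA.

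HDAC5, a class IIa deacetylase that represses MEF2 factors and is exported from the nucleus by kinase signals, was higher in both lines. Its probe set read 951, 637 and 825 in 69CHAT and 859, 866 and 810 in 82CHAT, against 407, 257 and 278 in WT. The lowest array of the lines (637) stood above the highest WT array (407). HDAC5 was 2.58-fold higher in 69CHAT (log2 difference 1.37, SE 0.19, limma adjusted p = 0.00085) and 2.75-fold higher in 82CHAT (1.46, SE 0.19, adjusted p = 0.0006). Within same-numbered arrays the difference was 1.23, 1.31 and 1.57 in 69CHAT and 1.08, 1.75 and 1.55 in 82CHAT.

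HDAC4 and HDAC9, the other class IIa genes among those followed, read low on every array and were not called. HDAC4, which also binds MEF2, read 61.8, 68.1 and 73.2 in 69CHAT and 65.4, 68.1 and 76.2 in 82CHAT, against 68.1, 70.3 and 54.9 in WT. HDAC9, known from muscle and brain, read 96.5, 99.7 and 95.7 in 69CHAT and 89.6, 97.5 and 86.7 in 82CHAT, against 109, 108 and 95.1 in WT. Both genes overlapped between groups, and both lay under the array medians of 133.7 to 142.6, with the lowest lower quartile of any array at 55.9. The intervals of their differences from WT ran from -0.19 to 0.39 for HDAC4 and from -0.38 to 0.10 for HDAC9 over both lines, so changes of the size seen for HDAC5 lie outside them. Differences of dim probe sets can be understated, which was not tested here.

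HDAC6 was measured by 3 probe sets and was called by none in the fit without weights. The brightest read 815, 778 and 659 in 69CHAT and 743, 549 and 612 in 82CHAT, against 753, 652 and 659 in WT, and its log2 differences were 0.12 in 69CHAT and -0.12 in 82CHAT. The second read 313, 343 and 312 in 69CHAT and 388, 279 and 303 in 82CHAT, against 293, 233 and 302 in WT. On the second, 69CHAT did not overlap WT, but the difference of 0.23 missed the threshold (limma adjusted p = 0.30, and 0.028 with array weights). The third read 40.3 to 43.3 on all 9 arrays, under each array's lower quartile, and so carries little measure of the gene.

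SIRT1, which deacetylates histones, p53 and other factors, did not differ beyond the spread of its arrays. It read 326, 556 and 639 in 69CHAT and 400, 534 and 546 in 82CHAT, against 339, 530 and 445 in WT. Replicate 1 was again the lowest array in every group, and the log2 difference from WT was 0.18 in each line (95% intervals -0.43 to 0.78 in 69CHAT and -0.42 to 0.79 in 82CHAT).

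EP300, whose product p300 acetylates H3 lysines at enhancers, varied more between replicates than between groups. The brighter probe set read 116, 300 and 342 in 69CHAT and 118, 310 and 274 in 82CHAT, against 170, 422 and 307 in WT. Replicate 1 was far below replicates 2 and 3 in each group, so the interval of the difference from WT was wide, -1.49 to 0.90 in 69CHAT and -1.58 to 0.81 in 82CHAT. The dimmer probe set read 148, 195 and 194 in 69CHAT and 140, 197 and 172 in 82CHAT, against 183, 204 and 223 in WT. It was lower than WT in every same-numbered pair, by log2 differences of -0.31, -0.06 and -0.20 in 69CHAT and -0.39, -0.05 and -0.38 in 82CHAT. The fit did not call it (-0.19 and limma adjusted p = 0.43 in 69CHAT, -0.27 and 0.25 in 82CHAT), while with the replicate block it was called lower in 82CHAT (adjusted p = 0.041).

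CREBBP, whose product CBP is the paralogue of p300, was nearest to a call among the uncalled genes. The brighter probe set read 366, 415 and 470 in 69CHAT and 415, 330 and 341 in 82CHAT, against 415, 545 and 512 in WT. Replicates 2 and 3 of 82CHAT lay below every WT array, and replicate 1 of the 2 groups read the same. The log2 difference from WT was -0.23 in 69CHAT (SE 0.14, limma adjusted p = 0.29) and -0.44 in 82CHAT (SE 0.14, adjusted p = 0.053). In replicates 2 and 3 alone it was called in both lines, with a log2 difference of -0.26 in 69CHAT (adjusted p = 0.045) and of -0.66, or 1.58-fold lower, in 82CHAT (adjusted p = 0.00094). Leaving out replicate 1 of 69CHAT, of 82CHAT or of WT also brought the 82CHAT difference past the threshold (adjusted p = 0.042, 0.026 and 0.027). So did leaving out dim probe sets (0.049), testing the brightest probe set of each gene (0.047) and array weights (-0.61, 0.00053), which also called it in 69CHAT (0.042). The dimmer probe set pointed the other way, with 80.3, 64.8 and 62.5 in 69CHAT and 120, 61.6 and 64.8 in 82CHAT, against 68.6, 66.4 and 53.0 in WT. Its differences of 0.14 and 0.33 were not called (adjusted p = 0.71 in 69CHAT and 0.37 in 82CHAT), so the 2 probe sets of CREBBP disagreed in sign.

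**Figure D2:**
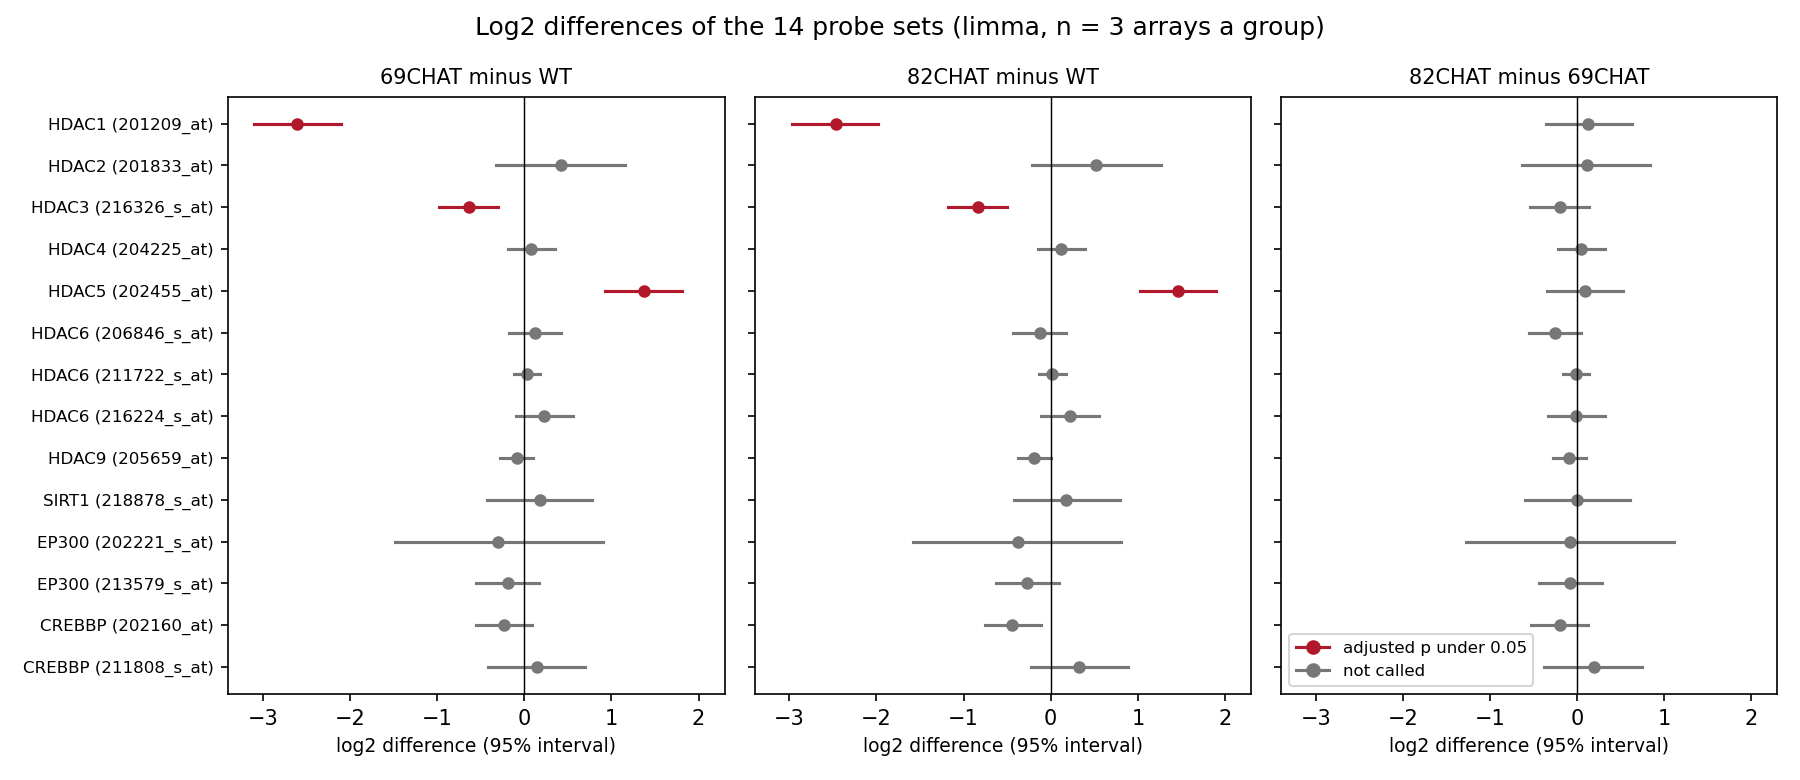
Log2 differences (horizontal axes, points with 95% intervals from limma, 3 arrays a group) of the 14 probe sets for 69CHAT minus WT, 82CHAT minus WT and 82CHAT minus 69CHAT. HDAC1, HDAC3 and HDAC5 are called against WT in both lines, all 14 intervals of 82CHAT minus 69CHAT include 0, and the brighter EP300 probe set has the widest interval.

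More members were called where the replicate number was used. With the replicate block 4 of the 14 were called in 69CHAT and 5 in 82CHAT, where 36.5% and 38.2% of all probe sets were called. In replicates 2 and 3 alone 5 were called in each line, where 39.0% and 39.6% of all were. Replicate 1 was the lowest array of all 3 groups at 5 of the 14 probe sets (HDAC1, HDAC2, SIRT1 and both of EP300), against 16.2% of all probe sets, and the highest at 2 (the brightest of HDAC6 and the dimmer of CREBBP), against 25.1%. The ratio of 3′ to 5′ ACTB signal, which rises where 5′ signal is lost, was 0.703 on replicate 1 of 69CHAT and 0.709 on replicate 1 of 82CHAT. It was 0.831 to 1.08 on the other 7 arrays, replicate 1 of WT included, so these 2 low ratios are no sign of poorer RNA. The same ratio for GAPDH was 0.95 to 1.06 on all arrays. It did not set replicate 1 apart (1.02 in 69CHAT, 0.98 in 82CHAT and 1.06 in WT). The bioD spike-in control read 220 in 69CHAT, 259 in 82CHAT and 193 in WT on replicate 1, against 460 to 739 on the other 6 arrays. The part of this in the replicate differences was not tested.

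Between the 82CHAT and 69CHAT lines limma called 0 of the 14 probe sets and 0% of all probe sets. With array weights 3 of the 14 were called, against 1704 of all 22215 probe sets. The 3 were HDAC1 (log2 difference 0.33, limma adjusted p = 0.037), the brightest of HDAC6 (-0.40, 0.016) and the brighter of CREBBP (-0.35, 0.02). At an unadjusted p under 0.05 there were 0 of the 14, against 733 of all 22215. Groups that did not overlap were found at 0 of the 14, against 6.84% of all probe sets (3.18% higher and 3.66% lower). The log2 difference of 82CHAT from 69CHAT was 0.13 for HDAC1 (95% interval -0.36 to 0.63), -0.20 for HDAC3 (-0.54 to 0.14) and 0.09 for HDAC5 (-0.35 to 0.53). For HDAC2 it was 0.11 (-0.63 to 0.84), for SIRT1 0.00 (-0.60 to 0.61) and for the brighter CREBBP probe set -0.20 (-0.53 to 0.12). The largest was -0.25 at the brightest HDAC6 probe set (-0.55 to 0.05). These intervals leave room for differences of up to the sizes given, so the lines are not shown to be alike. In replicates 2 and 3 alone HDAC1 was 1.30-fold higher in 82CHAT than in 69CHAT and missed the threshold (limma adjusted p = 0.063), as did the brighter CREBBP probe set, 1.32-fold lower (0.082), where 2.04% of all probe sets were called.

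HDAC1 lies on chromosome 1, and its measured neighbours there were more often lower than higher in the lines. Of the 10 genes measured on each side, 9 of 20 were lower and 1 was higher in each line than in WT, with median log2 differences of -0.22 in 69CHAT and -0.24 in 82CHAT. Over 1 probe set per gene of the whole array 17.7% were lower in 69CHAT and 18.5% in 82CHAT. The shares higher were 11.7% in 69CHAT and 11.8% in 82CHAT. EIF3I, a translation initiation subunit, differed most among those lower (-1.38 in each line), and HPCA, a neuronal calcium sensor, was the one higher (1.58 in 69CHAT and 1.61 in 82CHAT). RBBP4, the histone chaperone that binds HDAC1 in the NuRD and Sin3 complexes, was the third gene beyond it and was lower by -0.43 in 69CHAT (limma adjusted p = 0.017) and -0.34 in 82CHAT (0.046). HDAC1 itself, at -2.61 and -2.47, was lower than each of these 20. Among the 20 neighbours of HDAC3 on chromosome 5, 2 were lower and 1 was higher in each line. Around HDAC5 on chromosome 17, 9 were higher and 1 lower in 69CHAT, and 10 were higher and 2 lower in 82CHAT, against 11.7% and 11.8% of all genes higher. HDAC5 itself, at 1.37 in 69CHAT and 1.46 in 82CHAT, was not the highest there. The largest log2 difference among its neighbours was 3.26 in 69CHAT and 3.2 in 82CHAT. This look at neighbours was added after the values were seen and has no test.

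**Figure D3:**
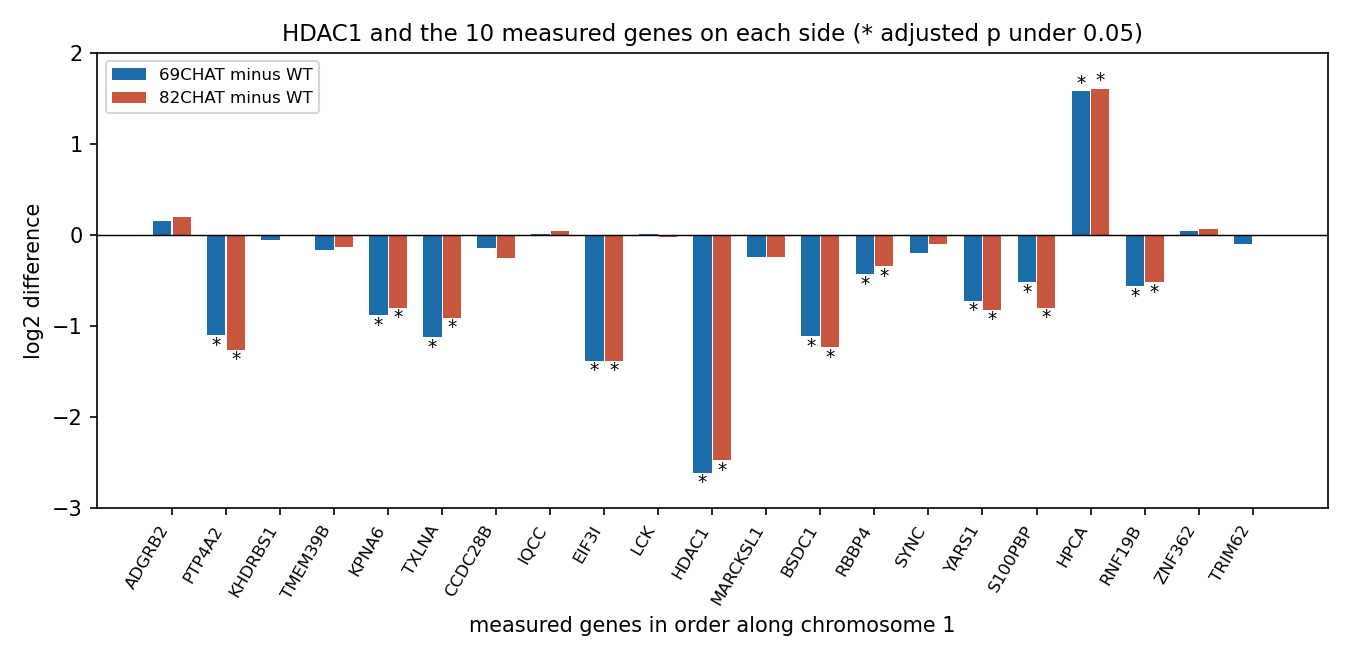
Log2 difference of 69CHAT and of 82CHAT from WT (vertical axis) for HDAC1 and the 10 measured genes on each side of it, in their order along chromosome 1 (horizontal axis), with an asterisk for an adjusted p under 0.05. HDAC1 is lowest at -2.61 and -2.47, 9 neighbours are called lower and HPCA is called higher.

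Genes whose log2 values followed HDAC1 most closely over the 9 arrays were GINS2, a DNA replication factor (Pearson r = 0.996), CD59, a complement inhibitor (0.995), POP4, a subunit of RNase P (0.994), LRPAP1, a chaperone of lipoprotein receptors (0.994), and EFCAB14 (0.994). All 9 arrays fall into 2 clusters, the lines and WT, so any gene with a difference as even as this would correlate. LRPAP1 came nearest in size, 5.68-fold lower in 69CHAT and 5.23-fold lower in 82CHAT.

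The wider machinery of histone acetylation was read from 8 lists, with the brightest probe set of each gene. Of 97 listed genes 81 were measured by a probe set with 1 symbol, and 10 were higher and 16 lower in 69CHAT, with 11 higher and 19 lower in 82CHAT. The blocked fit gave 21 higher and 20 lower in 69CHAT, and 17 higher and 26 lower in 82CHAT. Of all 22215 probe sets the block called 36.5% in 69CHAT (3686 higher and 4421 lower) and 38.2% in 82CHAT (3967 higher and 4519 lower). Without the block 32.1% of the 81 were called in 69CHAT and 37.0% in 82CHAT, against 29.4% and 30.3% of all genes. The median log2 differences were 0.01 in 69CHAT and -0.06 in 82CHAT, against 0.05 for all genes in each. Between 82CHAT and 69CHAT limma called 0 of the 81, with 7 at an unadjusted p under 0.05, against 733 of all 22215 probe sets.

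**Figure D4:**
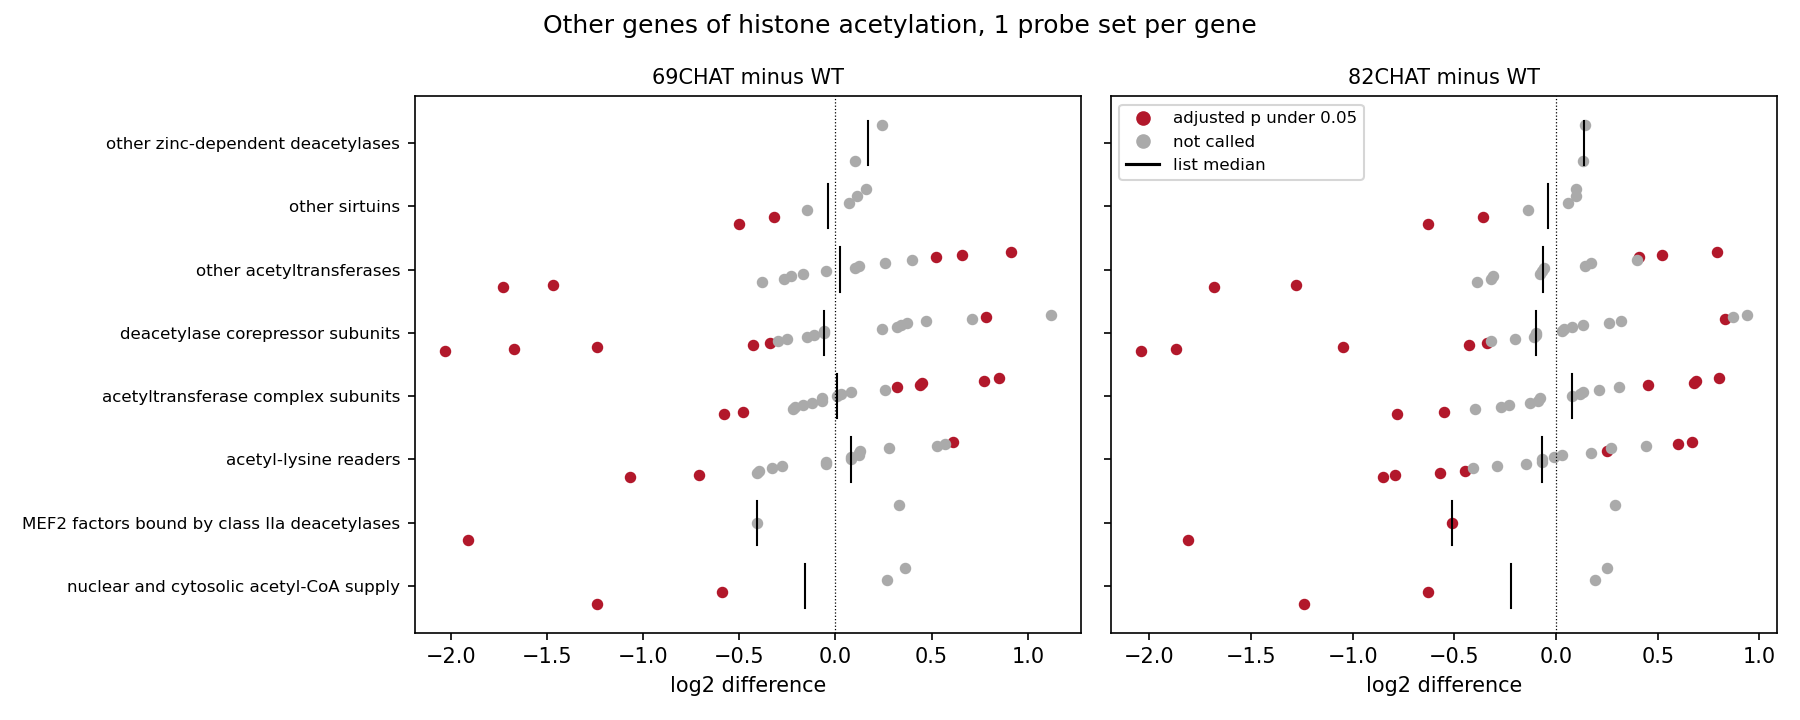
Log2 differences from WT (horizontal axes) of the measured genes of the 8 lists (rows), 69CHAT on the left and 82CHAT on the right, with called genes in red and the list median as a bar. Each list of more than 6 genes holds called genes on both sides of 0, and MBD2, KAT2B and MEF2C are among those furthest below it.

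Among the remaining deacetylases the changes were small. HDAC7 and HDAC11, the 2 other zinc-dependent enzymes measured, were not called in either line (log2 differences 0.24 and 0.10 in 69CHAT, 0.13 and 0.14 in 82CHAT). Of 6 other sirtuins 2 were lower in each line and 0 higher, where 17.7% of all genes were lower in 69CHAT and 18.5% in 82CHAT. SIRT7, a nucleolar deacetylase, read 223, 212 and 223 in 69CHAT and 223, 187 and 190 in 82CHAT, against 311, 338 and 280 in WT, with both lines below WT on every array (-0.50 and limma adjusted p = 0.0059 in 69CHAT, -0.63 and 0.0016 in 82CHAT). SIRT2, mainly a cytoplasmic tubulin deacetylase, was 1.25-fold lower in 69CHAT (adjusted p = 0.02) and 1.29-fold lower in 82CHAT (0.01). Quantile normalization again took SIRT2 past the threshold in neither line (adjusted p = 0.21 and 0.14), and its 69CHAT call was lost without either of replicates 2 and 3 of 69CHAT or any of the WT arrays (0.051 to 0.077), and with trend and robust eBayes settings (0.055).

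Other acetyltransferases moved both ways, 3 higher and 2 lower of 14 in each line (4 and 4 in each with the replicate block). With the block 36.5% of all probe sets were called in 69CHAT and 38.2% in 82CHAT. Without the block 11.7% of all genes were higher and 17.7% lower in 69CHAT, and 11.8% higher and 18.5% lower in 82CHAT. KAT2B, the acetyltransferase PCAF, read 31.5, 24.7 and 26.0 in 69CHAT and 29.3, 28 and 27.2 in 82CHAT, against 97.1, 96.4 and 78.3 in WT. KAT2B was lower in both lines (limma log2 difference -1.73 and adjusted p = 1.4e-05 in 69CHAT, -1.68 and 1.7e-05 in 82CHAT). All 6 arrays of the lines lay under the lower quartile, so the size is uncertain, and with 16 added before log2 it was -1.29 in 69CHAT and -1.27 in 82CHAT. KAT7, also called HBO1, which acetylates histones at replication origins, read 1301, 1139 and 1140 in 69CHAT and 1164, 1047 and 1068 in 82CHAT, against 593, 645 and 659 in WT. It was 1.89-fold higher in 69CHAT and 1.73-fold higher in 82CHAT (adjusted p = 9.8e-05 and 0.00023).

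Subunits of deacetylase corepressors were lower at 5 of 19 and higher at 1 in each line, where 17.7% of all genes were lower and 11.7% higher in 69CHAT, and 18.5% lower and 11.8% higher in 82CHAT. With the replicate block the count became 7 higher and 7 lower in 69CHAT, and 4 higher and 7 lower in 82CHAT. Of all probe sets the block called 36.5% in 69CHAT and 38.2% in 82CHAT. MBD2, which brings NuRD to methylated DNA, read 227, 234 and 269 in 69CHAT and 225, 234 and 269 in 82CHAT, against 1036, 945 and 999 in WT. It was 4.09-fold lower in 69CHAT and 4.10-fold lower in 82CHAT, with limma adjusted p = 2e-06 in both. GPS2, a subunit of the NCoR complex that holds HDAC3, was 2.35-fold lower in 69CHAT and 2.07-fold lower in 82CHAT. RBBP7, a paralogue of RBBP4 in the same complexes, named here after its values were seen, read 1065, 1707 and 1681 in 69CHAT and 1035, 1345 and 1445 in 82CHAT, against 4489, 4947 and 4453 in WT. It was 3.19-fold lower in 69CHAT (limma adjusted p = 0.00029) and 3.66-fold lower in 82CHAT (0.00015). CHD3, the 1 subunit called higher, is likewise named after its values were seen. It was 1.72-fold higher in 69CHAT (limma adjusted p = 0.0011) and 1.78-fold higher in 82CHAT (0.00076). The RBBP4 probe set has the suffix _x_at, so it may also bind RNA of other genes.

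Acetyltransferase complex subunits were higher at 5 and lower at 2 of 17 in 69CHAT, and higher at 4 and lower at 2 in 82CHAT (5 and 5 with the replicate block). For these and for the readers below, the unblocked shares of all genes were 11.7% higher and 17.7% lower in 69CHAT. In 82CHAT they were 11.8% higher and 18.5% lower. The block called 36.5% of all probe sets in 69CHAT and 38.2% in 82CHAT. EP400, of the TIP60 complex, was 1.80-fold higher in 69CHAT (limma adjusted p = 0.0013) and 1.60-fold higher in 82CHAT (0.0046). TRRAP, a scaffold shared by the TIP60 and SAGA complexes, was 1.49-fold lower in 69CHAT (0.0026) and 1.71-fold lower in 82CHAT (0.0005). JADE1, a partner of KAT7, was 1.36-fold higher in 69CHAT (0.0086) and 1.61-fold higher in 82CHAT (0.00087). Of 17 readers of acetyl-lysine 1 was higher and 2 were lower in 69CHAT, and 3 were higher and 4 lower in 82CHAT. For the readers the replicate block gave 3 higher and 2 lower in 69CHAT, and 4 higher and 4 lower in 82CHAT. MLLT3, a YEATS-domain reader, was 2.10-fold lower in 69CHAT and 1.73-fold lower in 82CHAT, and BRD7, a bromodomain subunit of a remodelling complex, was 1.63-fold lower in 69CHAT and 1.49-fold lower in 82CHAT.

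MEF2 factors, which class IIa deacetylases bind, were lower at 1 of 3 measured in 69CHAT and at 2 of 3 in 82CHAT. Of all genes 17.7% were lower in 69CHAT and 18.5% in 82CHAT, and a list of 3 is too short to be set apart from these shares. MEF2C read 70.6, 48.9 and 41.4 in 69CHAT and 88.3, 43.0 and 46.6 in 82CHAT, against 236, 172 and 187 in WT. It was 3.76-fold lower in 69CHAT (limma adjusted p = 0.0014) and 3.50-fold lower in 82CHAT (0.0019). Replicates 2 and 3 of both lines lay under their arrays' lower quartiles, so the size of the fold is uncertain, and with 16 added before log2 the difference was -1.63 in 69CHAT and -1.55 in 82CHAT. MEF2A was 1.42-fold lower in 82CHAT (adjusted p = 0.038), a call lost with only the 6 arrays compared (0.07), with quantile normalization again (0.061) and without any of 6 arrays left out in turn (0.056 to 0.11). Of 4 genes that supply acetyl-CoA 2 were lower in each line, against the same shares of all genes and again in a short list. SLC25A1, the mitochondrial citrate carrier, read 493, 711 and 722 in 69CHAT and 592, 623 and 689 in 82CHAT, against 1433, 1342 and 1746 in WT (2.37-fold lower in 69CHAT and 2.36-fold lower in 82CHAT, adjusted p = 0.00059 and 0.00061). PDHA1, a subunit of pyruvate dehydrogenase, was lower by log2 differences of -0.59 in 69CHAT and -0.63 in 82CHAT.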

How the data were processed

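RNA of 9 samples was measured on 1-colour oligonucleotide arrays. The deposited table holds linear intensities, 14.9 to 21486, made by the authors with RMA per the submitters' processing notes, while the sources used here give neither its version nor the step back from log2. Array medians were 133.7 to 142.6, 0 pairs of arrays were identical, 0 columns came from other series, and 3 arrays a group limit the precision. The 68 AFFX controls were left out, and 22215 probe sets were tested. The annotation gave 1 symbol to 19065 of these, several to 1043 and none to 2107. No probe set position is given in it.

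The log2 intensities entered a linear model in limma 3.58.1 under R 4.3.3 (3 group means over all 9 arrays, eBayes, two-sided, Benjamini-Hochberg over all probe sets, threshold 0.05), which was tested on simulated data. Fold changes are ratios of geometric means. Arrays of different groups with the same number deviated together from their group means, with correlations of 0.28 to 0.57, so the numbers in the titles were used as a block in an alternative, although replicates 2 and 3 of different groups also correlated (0.21 to 0.48).

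All members were named whatever their values. Each of 8 lists gave up to 2 called genes with the smallest adjusted p per comparison with WT, on the brightest probe set (11963 genes), and the 5 genes most like the member of widest range were named. Members, lists and tests were chosen with earlier results of these data known. Alternatives were other scalings, 16 added before log2, filters on probe sets, other eBayes settings, array weights, the 6 arrays compared, the replicate block, replicates 2 and 3 alone, each array left out and a threshold of 0.01. Background correction and slide could not be varied from this table.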

Additional observations from a re-analysis of the deposited data

How the results depend on the processing

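HDAC1 and HDAC5 kept their direction and call against WT in both lines under every alternative run, and so did HDAC3 except at the 0.01 threshold in 69CHAT (adjusted p = 0.012) and where probe sets with the suffixes _s_at and _x_at were left out, which removes it. Single-gene alternatives covered the members and the genes that the rule named from the 8 lists, in the comparison that named them. They did not cover RBBP7, CHD3, the neighbours of HDAC1 or the genes most like it. No called difference so covered changed sign. Among uncalled member differences 14 did under some alternative, such as the brighter EP300 probe set (0.19 without replicate 1 of 69CHAT, and 0.05 in 82CHAT without its replicate 1). Called member probe sets numbered 3 in each line and 0 between the lines. With array weights they were 6 in 69CHAT, 5 in 82CHAT and 3 in 82CHAT minus 69CHAT (HDAC1, HDAC6 and CREBBP). With the replicate block they were 5 in 82CHAT, and in replicates 2 and 3 alone 5 in each line. The block changed no call beyond HDAC2 and EP300 among the members. Leaving out each array gave 3 in 69CHAT, 3 to 4 in 82CHAT and 0 between the lines. Genes called over the 8 lists (26 in 69CHAT and 30 in 82CHAT) were 48 in 69CHAT and 7 in 82CHAT minus 69CHAT with array weights, 41 in 69CHAT with the replicate block and 44 in 69CHAT in replicates 2 and 3 alone. The 82CHAT counts were 45, 43 and 39 under these alternatives. They were 11 in 69CHAT and 13 in 82CHAT without _s_at and _x_at probe sets, which left 31 genes. Leaving out each array gave 22 to 34 in 69CHAT, 24 to 33 in 82CHAT and 0 between the lines. Over all probe sets (5818 in 69CHAT, 5948 in 82CHAT) array weights gave 9551, 9506 and 1704 in 82CHAT minus 69CHAT, and the 0.01 threshold gave 3871 and 3813. Fewer probe sets were tested without _s_at and _x_at (2712 and 2780 called) and with 1 per gene (3593 and 3708). Between the lines 454 were called in replicates 2 and 3 alone, 8 without replicate 1 of 69CHAT, 36 without replicate 1 of 82CHAT and 1 without replicate 2 of 82CHAT. Where no construction is named, the cause was not tested. Signal near background limits HDAC4, HDAC9, the dimmest HDAC6 and CREBBP probe sets, KAT2B and MEF2C.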
